A study of Homo sapiens with 4 samples.

Results

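The nuclear-encoded subunits of oxidative phosphorylation were followed in A673 cells, a human Ewing sarcoma line, after transfection of an siRNA against FAT4 or of a control siRNA. Members were taken by gene symbol, as every gene named like an NDUFA, NDUFB, NDUFC, NDUFS, NDUFV, SDH, UQCR, COX4 to COX8 or ATP5 gene. The symbols of 90 genes matched, 1 pseudogene (ATP5EP2) was left out, and 89 members of 23228 genes remained. They were 37 genes of complex I, 4 of complex II, 9 of complex III, 20 of complex IV and 19 of complex V, with NDUFA4 and NDUFA4L2 placed in complex IV, of which NDUFA4 is a subunit. Of the 89, 81 name a subunit, 2 name read-through transcripts (NDUFC2-KCTD14 and ATP5J2-PTCD1) and 2 name gene copies (UQCRHL and ATP5L2). The other 4 share the letters but are not structural subunits: ATP5S, ATP5SL, COX7A2L and COX4NB, which encodes a subunit of the endoplasmic reticulum membrane complex.

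Oxidative phosphorylation takes place in the inner mitochondrial membrane. Complexes I and II take electrons from NADH and succinate, ubiquinone carries them to complex III, cytochrome c carries them on to complex IV, where oxygen is reduced, and complex V (ATP synthase) uses the proton gradient that complexes I, III and IV build. Complexes I, III, IV and V join nuclear-encoded subunits with subunits encoded in mitochondrial DNA, whereas complex II is wholly nuclear-encoded. FAT4 is a giant atypical cadherin. In Drosophila, a fragment of its relative Fat enters mitochondria and binds Ndufv2, a core subunit of complex I, which ties this cadherin family to the respiratory chain in that species.

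The 4 groups were A673 cells with FAT4 siRNA at 24 h, A673 cells with FAT4 siRNA at 48 h, A673 cells with control siRNA (a scrambled siRNA in the labels) at 24 h and A673 cells with control siRNA at 48 h. All were grown in DMEM with fetal bovine serum and transfected with RNAiMAX, and mRNA was sequenced. Each group was 1 library of 1 cell line, and no replicate culture stands behind any value. Neither the siRNA sequences nor how many were pooled is stated in the labels.

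Gene counts totalled 15196813 and 15413960 in the FAT4 siRNA libraries (24 h and 48 h), against 22625833 and 19614913 in the control siRNA libraries. Values are CPM after TMM scaling, that is, counts scaled to the size of the library, and 3 counts in a library correspond to 0.134 to 0.203 CPM. FAT4 itself stood at 71.8 and 60.2 CPM with FAT4 siRNA (24 h and 48 h) and at 165 and 149 CPM with control siRNA, a log2 fold change of -1.25. Of the Ewing sarcoma markers, 9 of 10 had counts, with sums of 6192 and 5279 CPM with FAT4 siRNA and 4849 and 4023 CPM with control siRNA. The highest value of a single marker in any library was 5096 CPM, so 1 gene made up most of the sum in a FAT4 siRNA library. These sums therefore do not describe the list as a whole. CD99 was listed at 0. Alignments that were not unique are in no gene count, so this 0 does not show that CD99 was silent. Marker lists of leukocytes, epithelium, endothelium and differentiated skeletal muscle each summed to less than 1 CPM in every library.

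Most members were expressed in these cells, and the levels spanned a wide range. A mean of at least 5 CPM was reached by 78 members, 80 had enough counts to be tested, and 6 had no count in any library. The 6 were COX4I2, COX6A2, COX7A1 and COX7B2, which are isoforms of complex IV subunits known from particular tissues, and both read-through symbols. With 0 counts in a library, up to 0.203 CPM could have gone unseen. COX6B2 and COX8C, which are isoforms known from testis, had 0 to 3 counts per library, and the copy ATP5L2 also had 0 to 3. In complex IV the ubiquitous isoforms were the ones present: COX4I1, which binds the catalytic core, averaged 223 CPM, COX6A1 46.6 CPM and COX7A2 94.8 CPM.

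Levels between genes were compared as mean CPM per kilobase of transcript. ATP5B, the catalytic beta subunit of ATP synthase, was the highest of all members at 767 CPM per kb, and COX8A, a small subunit of complex IV, followed at 532. The highest of complex I was NDUFS3, a core subunit of the arm that binds quinone, at 388 CPM per kb, and the highest of complex II was SDHB, the iron-sulfur subunit, at 145. Among the members with at least 5 CPM, the low end was held by NDUFV3 of complex I at 21.6 CPM per kb, UQCRFS1, the Rieske iron-sulfur protein of complex III, at 24.7, COX4NB at 20.4 and ATP5S at 9.003. Median levels were 87.7 CPM per kb in complex I, 105 in complex II, 110 in complex III, 172 in complex IV and 195 in complex V. These levels rest on the annotated transcript of median length, and their order is uncertain. With the principal transcript of each gene the medians were 80.1 CPM per kb in complex I, 57.02 in complex II, 70.3 in complex III, 161.9 in complex IV and 151 in complex V, so that complex II was lowest and complex IV highest. The same members were then highest in complexes I, II, IV and V (NDUFS3 at 236 CPM per kb), but the highest of complex III was UQCRQ (162.8 CPM per kb) in place of UQCRB (247 CPM per kb on the median transcript), and the lowest of complex II was SDHC (3.62 CPM per kb) in place of SDHA (60.3 CPM per kb on the median transcript).

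**Figure D1:**
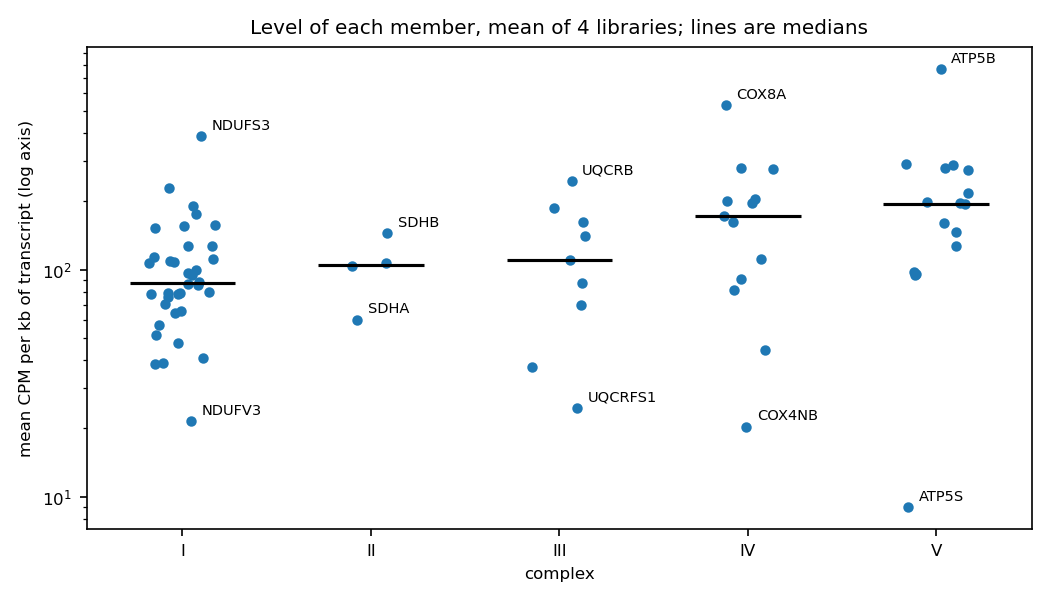
Mean level of each member with at least 5 CPM, as CPM per kb of transcript on a log axis, by respiratory complex; each point is 1 gene averaged over 4 libraries and the lines are medians. Drawn on the transcript of median length, the medians go from 87.7 CPM per kb in complex I to 195 in complex V, an order that changes with principal transcripts, and ATP5B stands on top at 767.

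As a whole the members moved little between FAT4 siRNA and control siRNA. Their CPM summed to 9919 and 9163 with FAT4 siRNA (24 h and 48 h) and to 10027 and 9693 with control siRNA, which gave ratios of 0.989 at 24 h and 0.945 at 48 h. In bulk RNA, less RNA per cell and fewer cells that carry it cannot be told apart. The ratio of sums at 48 h was 0.952 for complex I, 0.964 for complex II, 0.958 for complex III, 0.920 for complex IV and 0.945 for complex V. In the edgeR fit over both times, 69 of 80 tested members (86.3%) had a fold change between 20% lower and 25% higher, against 65.9% of all 13712 genes tested. The 2 sets differ in level, since 78 of the 80 members but 10595 of the 13712 genes had at least 5 CPM. A share matched by level was not worked out. The median log2 fold change was -0.04 for the members and -0.01 for all genes. The p-values of this fit weigh the mean siRNA difference against a spread taken from a trend shared by all genes. A gene's own disagreement between the times did not change that spread, because the prior degrees of freedom were infinite. The p-values do not measure how much cultures differ.

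At an adjusted p under 0.05 (edgeR quasi-likelihood test, Benjamini-Hochberg over all genes tested), 10 members were called, 3 higher and 7 lower with FAT4 siRNA, which is 12.5% of those tested. The background was 25.9% of all genes called (11.9% higher and 14.1% lower), and 30.3% among genes with at least 5 CPM. The share of members called lies below this background. The calls were 6 of 36 tested genes in complex I (3 higher and 3 lower), 1 of 9 in complex III, 2 of 14 in complex IV and 1 of 17 in complex V. None of the 4 complex II genes was called by edgeR, and none had an unadjusted p under 0.05. The other 70 tested members did not pass. For some genes below, whether the values of the groups overlap is given as a description. No share over all genes was worked out for it. Called genes were picked from these same values, so a lack of overlap adds no support to a call.

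**Figure D2:**
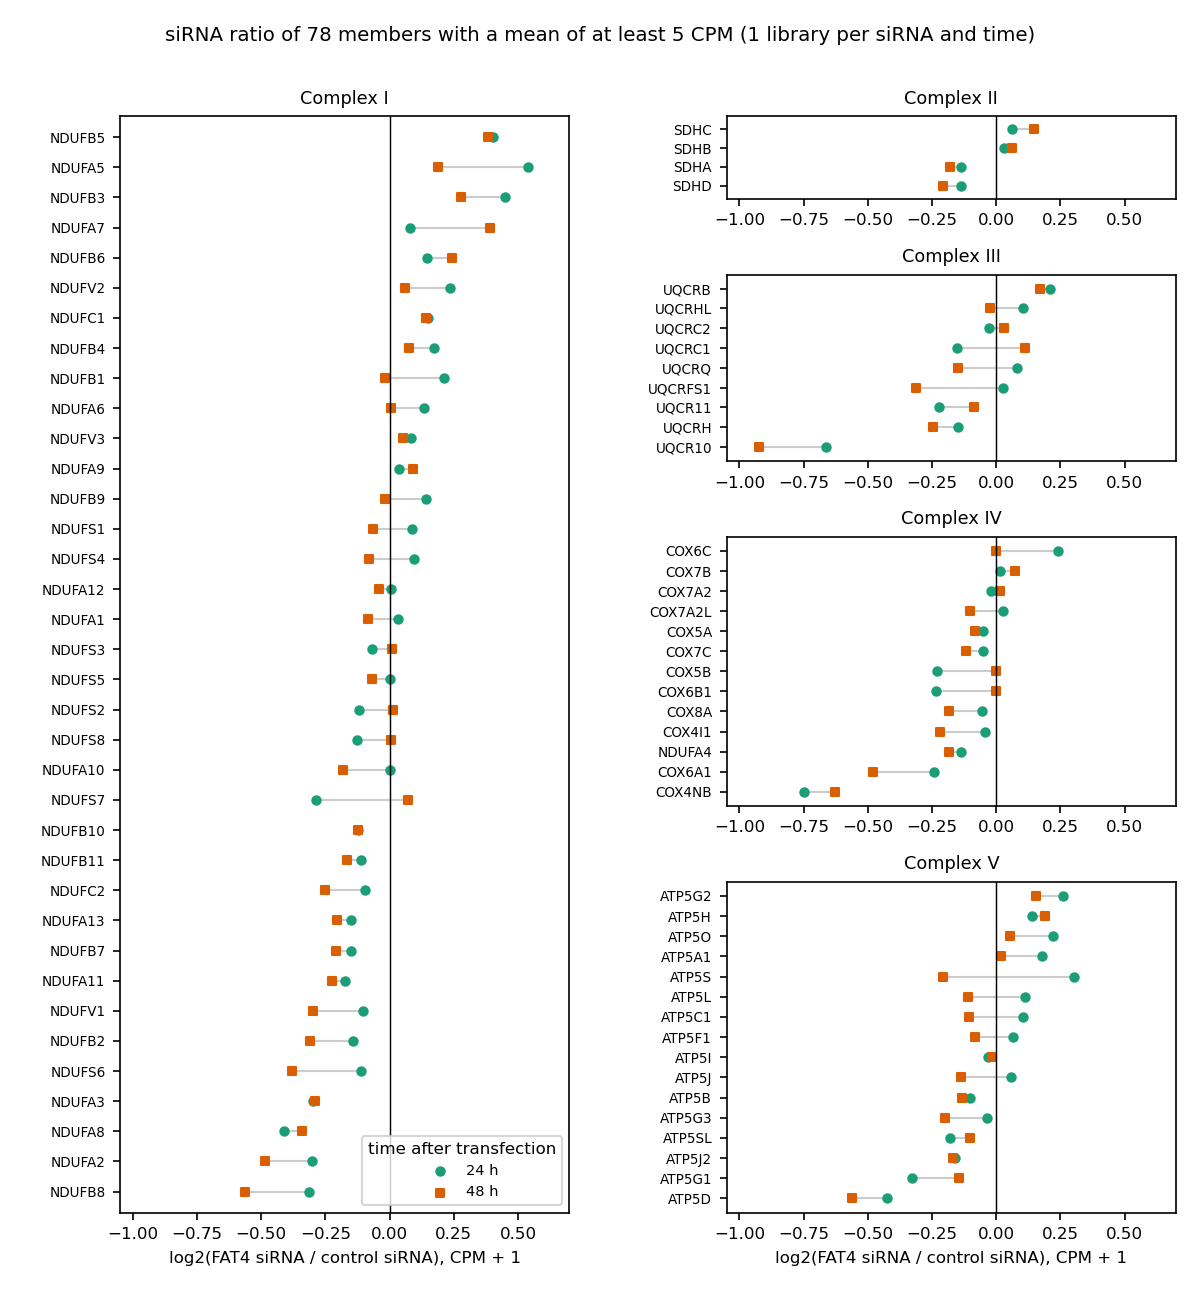
Log2 ratio of FAT4 siRNA to control siRNA, on CPM + 1, for the 78 members with a mean of at least 5 CPM, by complex, with 1 mark for 24 h and 1 for 48 h; every mark compares 2 single libraries. Most marks lie near 0 (median -0.03 at 24 h and -0.08 at 48 h), with UQCR10 and COX4NB far to the left at both times.

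UQCR10, a small subunit of complex III, had the strongest decrease of the members. It stood at 42.1 CPM at 24 h and 32.6 CPM at 48 h with FAT4 siRNA, against 67.2 and 62.7 CPM with control siRNA. Both FAT4 siRNA values lay below both control values, and the log2 fold change was -0.81 (SE 0.112, adjusted p = 5.48e-11). The ratios were 0.626 at 24 h (95% counting interval 0.569 to 0.688) and 0.520 at 48 h (0.468 to 0.577). The other 8 genes of complex III were not called, among them the core subunits UQCRC1 and UQCRC2 with log2 fold changes of -0.02 and 0.00, and UQCRFS1 with -0.14.

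COX4NB, the member outside the respiratory chain, fell likewise. Its values were 32.5 and 27.2 CPM with FAT4 siRNA (24 h and 48 h) and 55.4 and 42.6 CPM with control siRNA, with no overlap (log2 fold change -0.71, SE 0.120, adjusted p = 1.49e-07). Its neighbour by name, the complex IV subunit COX4I1, had 229 and 197 CPM with FAT4 siRNA and 237 and 229 CPM with control siRNA and was not called (log2 fold change -0.13). Without COX4NB, 9 of the 75 structural subunits tested were called.

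ATP5D, the delta subunit in the central stalk of ATP synthase, was the only complex V gene called. It had 62.5 and 49.4 CPM with FAT4 siRNA (24 h and 48 h), against 84.2 and 73.4 CPM with control siRNA (log2 fold change -0.50, SE 0.104, adjusted p = 2.93e-05). ATP5E, its partner in the central stalk, was counted at only 1.56 and 1.79 CPM with FAT4 siRNA and 2.15 and 2.88 CPM with control siRNA (log2 fold change -0.58, adjusted p = 0.186). The left-out copy ATP5EP2 held 34.9 to 42.4 CPM, so the count of ATP5E is uncertain. ATP5C1, the gamma subunit of the same stalk, had a log2 fold change of -0.00, and the head subunits ATP5A1 (alpha) and ATP5B (beta) had 0.10 and -0.12. None of the 3 was called.

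Complex I held calls in both directions, all among its accessory subunits. Of the 29 accessory genes tested, 3 were higher and 3 lower. Of the 7 nuclear-encoded core subunits, which carry out electron transfer and have counterparts in bacteria, edgeR called none, and 1 had an unadjusted p under 0.05. Their log2 fold changes ran from -0.20 (NDUFV1, which binds NADH) to 0.15 (NDUFV2).

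NDUFV2, the human counterpart of the fly protein bound by Fat, had 38.6 and 37.8 CPM with FAT4 siRNA (24 h and 48 h) and 32.6 and 36.2 CPM with control siRNA. Both FAT4 siRNA values were above both control values, but by little at 48 h, where the counting interval of the ratio was 0.934 to 1.16. The gene was not called (log2 fold change 0.15, SE 0.121, adjusted p = 0.379).

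The 3 higher genes were NDUFB5 and NDUFB3, both in the membrane arm, and NDUFA5, in the matrix arm. NDUFB5 had 105 and 112.1 CPM with FAT4 siRNA (24 h and 48 h) and 78.9 and 85.7 CPM with control siRNA (log2 fold change 0.40, SE 0.0972, adjusted p = 0.000497). Its ratio was alike at both times, 1.33 at 24 h and 1.31 at 48 h. NDUFB3 had 51.3 and 46.7 CPM with FAT4 siRNA and 37.4 and 38.3 CPM with control siRNA (log2 fold change 0.37, SE 0.116, adjusted p = 0.00829). NDUFA5 had 104 and 90.5 CPM with FAT4 siRNA and 71.0 and 79.2 CPM with control siRNA (log2 fold change 0.37, SE 0.0988, adjusted p = 0.0017). In all 3 genes the FAT4 siRNA libraries lay above both control libraries, and in NDUFA5 the gap was wider at 24 h, with ratios of 1.14 at 48 h and 1.46 at 24 h.

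The 3 lower genes of complex I were NDUFB8, in the membrane arm, NDUFA2, in the arm that binds NADH, and NDUFA8, which faces the intermembrane space. NDUFB8 had 97.4 and 86.0 CPM with FAT4 siRNA (24 h and 48 h) and 121 and 128 CPM with control siRNA (log2 fold change -0.44, SE 0.0962, adjusted p = 6.76e-05). NDUFA2 had 28.004 and 23.3 CPM with FAT4 siRNA and 34.7 and 33.0 CPM with control siRNA (log2 fold change -0.41, SE 0.128, adjusted p = 0.0093). NDUFA8 had 46.9 and 47.6 CPM with FAT4 siRNA and 62.7 and 60.6 CPM with control siRNA (log2 fold change -0.38, SE 0.109, adjusted p = 0.00351). The groups did not overlap in any of the 3, a description with no share over all genes beside it. NDUFB8 was further from its control at 48 h (ratio 0.674) than at 24 h (0.802).

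COX6A1, the ubiquitous form of a complex IV subunit whose muscle form COX6A2 had no count, was the only structural subunit of complex IV called. It had 41.9 and 39.4 CPM with FAT4 siRNA (24 h and 48 h), against 49.8 and 55.4 CPM with control siRNA (log2 fold change -0.37, SE 0.114, adjusted p = 0.00746). NDUFA4, once assigned to complex I, had 94.4 and 83.6 CPM with FAT4 siRNA and 104 and 95.1 CPM with control siRNA. It was lower with FAT4 siRNA at each time but was not called (log2 fold change -0.16, adjusted p = 0.219). COX5A and COX5B, 2 further structural subunits, had log2 fold changes of -0.07 and -0.12, and COX7A2L, a factor that joins complexes III and IV into supercomplexes, had -0.04.

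In complex II, SDHA, the flavoprotein that oxidises succinate, had 120 and 115 CPM with FAT4 siRNA (24 h and 48 h) and 133 and 130 CPM with control siRNA. SDHB had 177 and 162 CPM with FAT4 siRNA and 173 and 155 CPM with control siRNA. The log2 fold changes of the 4 genes were -0.16 for SDHA, 0.05 for SDHB, and 0.11 and -0.17 for the membrane anchors SDHC and SDHD. None of these passed the test.

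**Figure D3:**
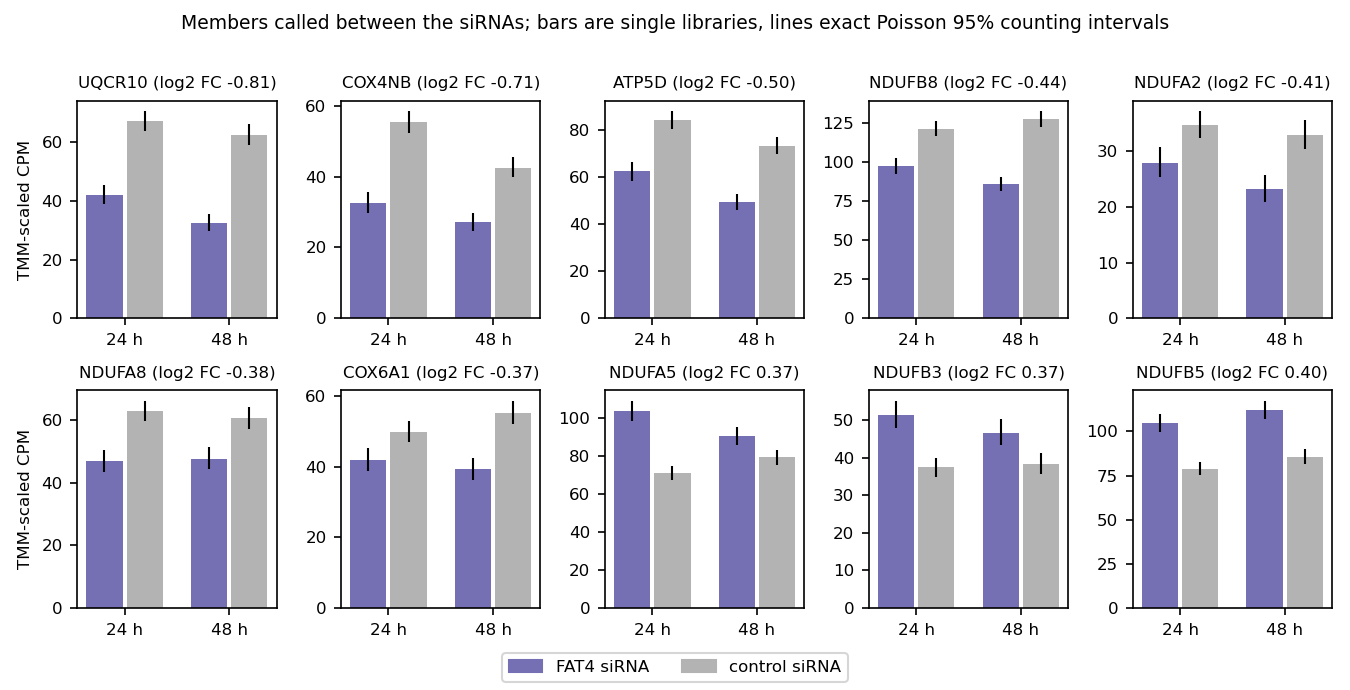
CPM of the 10 members called between the siRNAs, with FAT4 siRNA left of control siRNA at 24 h and 48 h; each bar is a single library and the lines are exact Poisson 95% counting intervals. In each of the 3 higher and 7 lower genes, the FAT4 siRNA bar is on the same side of its control bar at both times.

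DESeq2 called 5 of the 10 (NDUFB5, UQCR10, COX4NB, ATP5D and NDUFB8) and not NDUFB3, NDUFA5, NDUFA2, NDUFA8 and COX6A1. Its share of all genes called was not worked out. In a fit with no term for time, none of the 10 was called by edgeR, and 10 members had an unadjusted p under 0.05.

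Single times were described by ratios of 2 libraries, with no test. At 24 h, FAT4 siRNA cells had 4 of the 78 members of at least 5 CPM raised by 25% or more and 5 lowered by 20% or more, against a background of 12.6% and 15.7% of genes. At 48 h the same limits took in 2 higher and 8 lower members, against 15.5% and 17.5%. The ratio had the same direction at both times in 52 of 78 members. Counting intervals excluded 1 on the same side at both times in 8 members above 1 and 23 members below 1. Many of the small ratios thus exceeded counting error, which leaves out variation between cultures. For same directions and for these intervals, no share over all genes was worked out, so the counts show nothing particular to the members.

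Among members with at least 5 CPM, the 3 with the greatest shift of the siRNA ratio between the times were taken in each direction. The ratio was lower at 48 h than at 24 h in ATP5S (0.854 at 48 h and 1.26 at 24 h), NDUFA5 and UQCRFS1 (0.804 at 48 h and 1.02 at 24 h). It was higher at 48 h in NDUFS7, a core iron-sulfur subunit of complex I (1.05 at 48 h and 0.817 at 24 h), NDUFA7, an accessory subunit (1.32 at 48 h and 1.06 at 24 h), and UQCRC1 (1.08 at 48 h and 0.898 at 24 h). ATP5S was the scarcest of these, at 9.97 and 11.4 CPM with FAT4 siRNA (48 h and 24 h) and 11.7 and 9.09 CPM with control siRNA, and its counting intervals, 0.693 to 1.05 at 48 h and 1.02 to 1.55 at 24 h, were the widest of the 6. These differences between times could not be tested with 1 library per group.

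The siRNA ratio of the members moved with the GC content of their transcripts. Across 80 members the log2 ratio at 24 h had a Spearman correlation of -0.52 with GC content, and the ratio at 48 h one of -0.29. Across 13090 genes the values were -0.52 at 24 h and -0.21 at 48 h. Genes share libraries and base composition, so these are descriptions. The 3 higher members had transcripts of 33.2% to 40.6% GC, the 7 lower members 51.0% to 69.3% (median 52.6%), and the members not called had a median of 51.3%. With offsets for GC content and length in the edgeR fit, 2 members were higher and 9 lower. The share of all genes called with these offsets was not worked out. ATP5D (log2 fold change -0.21, adjusted p = 0.0924), NDUFA5 (0.14, adjusted p = 0.264) and NDUFB3 (0.22, adjusted p = 0.124) were then no longer called. UQCR10 (log2 fold change -0.80), COX4NB (-0.67), NDUFA2 (-0.41), NDUFB8 (-0.40), NDUFA8 (-0.38), COX6A1 (-0.35) and NDUFB5 (0.24) were still called. ATP5G2 (0.27), NDUFA4 (-0.28), UQCRH (-0.25), a hinge protein of complex III, and COX7C (-0.22), a small complex IV subunit, were called in addition.

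**Figure D4:**
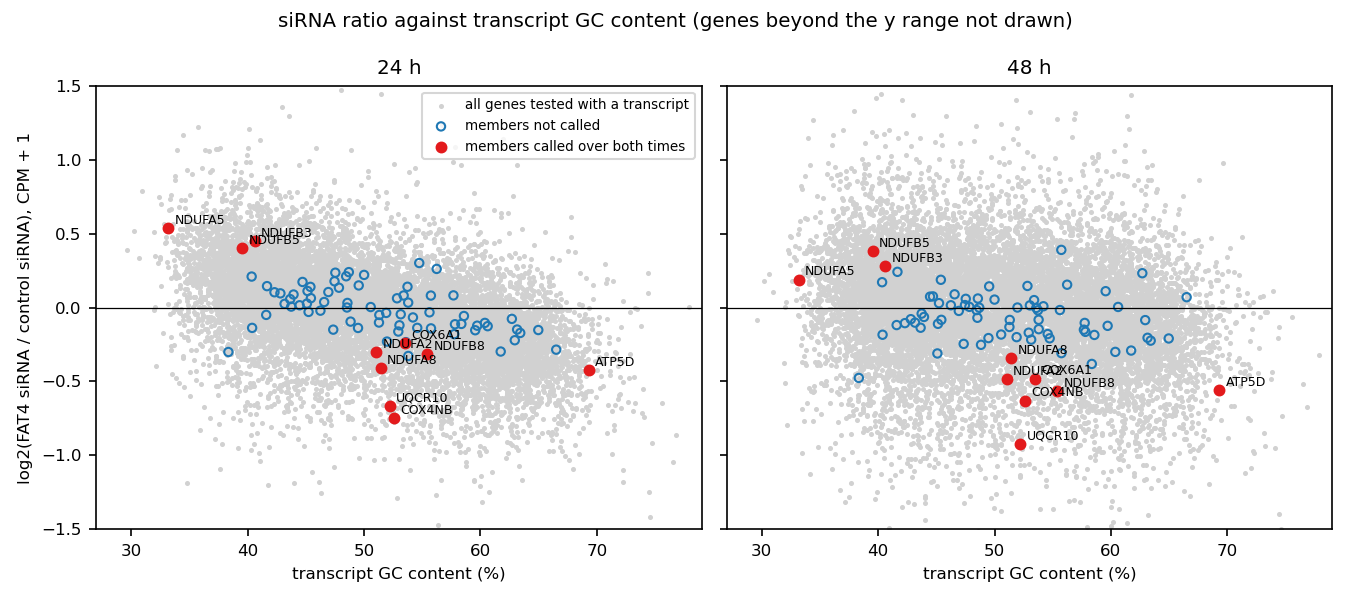
Log2 ratio of FAT4 siRNA to control siRNA, on CPM + 1, against transcript GC content in percent, at 24 h and 48 h; grey points are all genes tested with an annotated transcript, open circles members not called and filled circles the 10 called members. The cloud slopes downwards, more steeply at 24 h, and the 3 higher members sit at its GC-poor end.

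The promoters of respiratory genes are known for sites of NRF1, of the ETS-type factor GABP (NRF2) and of YY1. In RefSeq windows from 250 bases before to 50 after the start (GRCh38.p14), 69 members were matched. The NRF1 letters GCGCATGCGC stood in 4 of them (5.80%, against 1.52% of 27305 genes), the ETS letters CCGGAAG in 21 (30.4%, against 12.2%) and the YY1 letters AANATGGCG in 17 (24.6%, against 3.85%), on either strand. The YY1 letters contain ATG and can overlap a start codon. These are matches of letters, not measured sites. The 27305 genes are all those with a window, whether or not they had counts in these cells. No share was worked out over the genes tested, so the contrast may not be particular to respiratory genes. Of the 10 called members, 8 had a window, and ATP5D and NDUFB5 were not searched. COX6A1 and COX4NB held the ETS letters, COX6A1, NDUFB8 and UQCR10 the YY1 letters and NDUFA8 the NRF1 letters. The median siRNA log2 fold change was -0.03 for 17 tested members with the YY1 letters and -0.08 for 47 without them. With the ETS letters it was -0.12 over 21 members, and without them -0.04 over 43.

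The windows of 5 called members are shown as examples, from 100 bases before to 50 bases after the start, with the letters searched in capitals. NDUFA5 and NDUFA2, which held none of the letters, and COX4NB also had a window and are not shown. Where a gene had several windows, the one with most of the letters was taken, so the examples lean towards windows with letters. UQCR10 lies at chr22:29767269-29767418 (plus strand), COX6A1 at chr12:120438013-120438162 (plus strand), NDUFA8 at chr9:122159730-122159879 (minus strand), NDUFB8 at chr10:100529822-100529971 (minus strand) and NDUFB3 at chr2:201071901-201072050 (plus strand). In UQCR10 the first capitals are the word TTGGACT, described below, and the second the YY1 letters. In COX6A1 the ETS letters (on the minus strand) come before the YY1 letters. NDUFA8 has the NRF1 letters, NDUFB8 the YY1 letters, and NDUFB3 none of them.
UQCR10: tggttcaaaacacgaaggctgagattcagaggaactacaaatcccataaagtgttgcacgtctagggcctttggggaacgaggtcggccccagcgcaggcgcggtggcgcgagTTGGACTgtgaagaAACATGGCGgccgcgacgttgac
COX6A1: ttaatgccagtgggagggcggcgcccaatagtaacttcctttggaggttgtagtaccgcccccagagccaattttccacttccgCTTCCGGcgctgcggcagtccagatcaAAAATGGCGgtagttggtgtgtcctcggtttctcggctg
NDUFA8: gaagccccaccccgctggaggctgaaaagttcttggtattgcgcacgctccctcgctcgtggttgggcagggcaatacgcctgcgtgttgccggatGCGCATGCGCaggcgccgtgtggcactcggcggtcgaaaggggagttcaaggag
NDUFB8: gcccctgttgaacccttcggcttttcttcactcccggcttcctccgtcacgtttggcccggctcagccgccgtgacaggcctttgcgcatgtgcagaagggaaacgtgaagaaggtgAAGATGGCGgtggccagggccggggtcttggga
NDUFB3: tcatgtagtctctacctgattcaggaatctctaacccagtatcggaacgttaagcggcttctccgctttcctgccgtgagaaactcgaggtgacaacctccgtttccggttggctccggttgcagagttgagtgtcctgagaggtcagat

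Between 48 h and 24 h, 6 of the 11 members called by edgeR were ATP synthase genes, and not all of these calls held under other settings. Over both siRNAs, edgeR called 11 of 80 members, 1 higher and 10 lower at 48 h, which is 13.8%, against a background of 26.6% of genes (13.8% higher and 12.8% lower). The median log2 fold change was -0.06 for the members and 0.01 for all genes. Complex V held 6 of the 10 lower genes, out of 17 tested, and complex I held 3 of 36, complex IV 1 of 14, and complexes II and III none. The share called in complex V was 35.3%, all lower, against the 26.6% of genes called in either direction and the 12.8% called lower. With libraries scaled by total gene counts alone, which moved the median gene by 0.06, the count was 2 higher and 5 lower, and the median of the members was -0.01. No background of all genes was worked out for that scaling.

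All 3 genes for the c subunit of ATP synthase were lower at 48 h. These genes, ATP5G1, ATP5G2 and ATP5G3, encode the same mature protein, which forms the rotating ring in the membrane. ATP5G1 had 41.7 CPM at 48 h and 54.8 CPM at 24 h with FAT4 siRNA, and 46.3 CPM at 48 h and 69.0 CPM at 24 h with control siRNA (log2 fold change -0.49, SE 0.110, adjusted p = 0.000144). ATP5G2 had 192 CPM at 48 h and 249 CPM at 24 h with FAT4 siRNA, and 172 CPM at 48 h and 207 CPM at 24 h with control siRNA (log2 fold change -0.32, SE 0.0910, adjusted p = 0.00318). Both values at 48 h lay below both values at 24 h in each gene. ATP5G3 had 198 CPM at 48 h and 254 CPM at 24 h with FAT4 siRNA, and 228 CPM at 48 h and 261 CPM at 24 h with control siRNA (log2 fold change -0.27, SE 0.0902, adjusted p = 0.0135). It was not called when libraries were scaled by total counts.

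The other lower genes of complex V were ATP5F1, the b subunit of the outer stalk, ATP5L, the g subunit in the membrane, and ATP5D. ATP5F1 had 115 CPM at 48 h and 151 CPM at 24 h with FAT4 siRNA, and 122 CPM at 48 h and 144 CPM at 24 h with control siRNA (log2 fold change -0.31, SE 0.0943, adjusted p = 0.00607). ATP5L had 181 CPM at 48 h and 240 CPM at 24 h with FAT4 siRNA, and 195 CPM at 48 h and 222 CPM at 24 h with control siRNA (log2 fold change -0.30, SE 0.0909, adjusted p = 0.0068). The groups did not overlap in either gene, again with no share over all genes worked out. ATP5D had a log2 fold change of -0.27 (adjusted p = 0.0417) and was not called with total counts. The catalytic head was closer to level, with -0.02 for ATP5A1 and -0.07 for ATP5B.

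**Figure D5:**
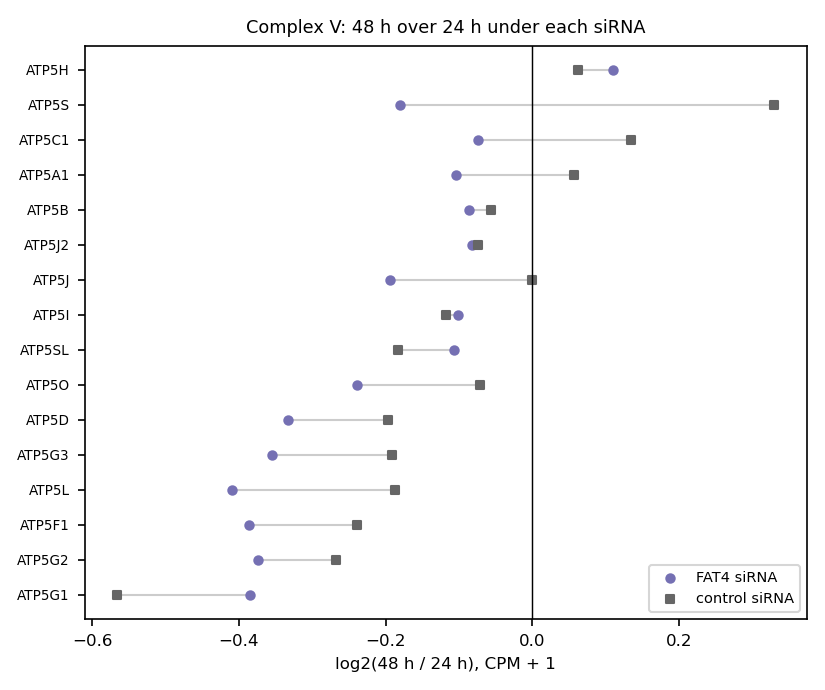
Log2 ratio of 48 h to 24 h, on CPM + 1, for the complex V members with a mean of at least 5 CPM, with 1 mark for FAT4 siRNA and 1 for control siRNA; each mark compares 2 single libraries. ATP5G1, ATP5G2 and ATP5G3 lie left of 0 with both siRNAs, and ATP5S moves in opposite directions.

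In complex I the lower genes at 48 h were NDUFA9, NDUFS6 and NDUFS3. NDUFA9, which sits at the junction of the arms, had 92.2 CPM at 48 h and 112.4 CPM at 24 h with FAT4 siRNA, and 86.6 CPM at 48 h and 109 CPM at 24 h with control siRNA (log2 fold change -0.31, SE 0.0966, adjusted p = 0.00778). NDUFS6, a zinc-binding subunit, had a log2 fold change of -0.30 (adjusted p = 0.0229) and NDUFS3 of -0.25 (adjusted p = 0.0274), and neither was called with total counts. COX4NB was lower as well, with 27.2 CPM at 48 h and 32.5 CPM at 24 h with FAT4 siRNA, and 42.6 CPM at 48 h and 55.4 CPM at 24 h with control siRNA (log2 fold change -0.32, SE 0.120, adjusted p = 0.0299). It too was not called with total counts.

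The member higher at 48 h was NDUFA4L2, a relative of NDUFA4 known to be induced by low oxygen. It was scarce, at 1.34 CPM (21 counts) at 48 h and 0.203 CPM (3 counts) at 24 h with FAT4 siRNA, and at 0.994 CPM (20 counts) at 48 h and 0.269 CPM (6 counts) at 24 h with control siRNA. The ratio of 48 h to 24 h was 6.62 with FAT4 siRNA (95% counting interval 1.98 to 34.6) and 3.70 with control siRNA (1.43 to 11.3). The log2 fold change was 2.20 (SE 0.586, adjusted p = 0.00156). The siRNA difference of this gene was not called (log2 fold change 0.25, adjusted p = 0.779).

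Under each siRNA separately, with no test, 1 of 78 members was up by 25% or more at 48 h and 9 were down by 20% or more with FAT4 siRNA, against a background of 16.2% and 14.7% of genes. With control siRNA, 1 was up and 3 were down by that much, against 14.2% and 13.4%. The member CPM summed to 9163 at 48 h and 9919 at 24 h with FAT4 siRNA, a ratio of 0.924, and to 9693 at 48 h and 10027 at 24 h with control siRNA, a ratio of 0.967. For complex V the ratios of sums were 0.891 with FAT4 siRNA and 0.950 with control siRNA. These comparisons share libraries with those between the siRNAs. DESeq2 called 2 of the 11 members, ATP5G1 and ATP5G2, and its share over all genes was not worked out.

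Across the 4 libraries most members with at least 5 CPM stayed within a narrow range, which was not compared with that of other genes. The ratio of the highest to the lowest library had a median of 1.19 over the 78 members with at least 5 CPM, and it was under the same 25% in 53 of them. It was at least 1.5 in 4 members: UQCR10 (2.06), COX4NB (2.04), ATP5D (1.70) and ATP5G1 (1.65).

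Genes that work with the complexes were described from lists that hold no member. NDUFAB1, the mitochondrial acyl carrier protein, is itself a complex I subunit whose symbol falls outside the naming pattern, and it fell more than any member. It had 69.3 and 63.8 CPM with FAT4 siRNA (24 h and 48 h) and 129 and 136 CPM with control siRNA (log2 fold change -0.99, SE 0.0981, adjusted p = 3.21e-21). Among electron carriers and coupled enzymes, 3 of 28 tested genes were higher and 3 lower with FAT4 siRNA (21.4% called, against 25.9% of all genes; median log2 fold change -0.11). VDAC1, the main channel of the outer membrane, was lower at 232 and 175 CPM with FAT4 siRNA (24 h and 48 h), against 313 and 314 CPM with control siRNA (log2 fold change -0.64). CYCS, which encodes cytochrome c, was higher at 323 and 232 CPM with FAT4 siRNA, against 235 and 195 CPM with control siRNA (log2 fold change 0.35). COQ5, an enzyme of ubiquinone synthesis, was higher too (log2 fold change 0.37).

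Assembly factors had 6 higher and 5 lower genes of 51 tested with FAT4 siRNA (21.6% called), with a median log2 fold change of 0.02. C8orf38 (now NDUFAF6), a complex I assembly factor, fell by 0.83 on the log2 scale, and COX15, which makes haem A for complex IV, fell by 0.71. SCO1, a copper chaperone of complex IV, rose by 0.51 and LYRM7, which inserts the Rieske protein into complex III, by 0.49. Among regulators of respiratory and mitochondrial gene expression, 3 of 21 were higher and none lower by edgeR (14.3% called, median 0.14), with GABPB2, a subunit of GABP, at 0.51 and CREB1 at 0.36. In the tricarboxylic acid cycle and pyruvate dehydrogenase list, 1 of 22 was higher and 5 were lower (27.3% called, median -0.04). With 25.9% of all genes called, none of these lists stands out by its count, and the genes named are single cases. Its succinyl-CoA synthetase genes moved in opposite directions: SUCLA2, for the ATP-forming beta subunit, fell by 0.68, while SUCLG2, for the GTP-forming one, rose by 0.94. PC, which encodes pyruvate carboxylase, fell by 0.59.

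Between the times, assembly factors had 4 higher and 6 lower genes of 51 at 48 h (19.6% called), regulators 2 and 3 of 21 (23.8%), carriers 3 and 4 of 28 (25%) and the tricarboxylic acid cycle list 3 and 4 of 22 (31.8%), against 26.6% of all genes. These shares lie near that of all genes, and the genes below are single cases. PDK1 and PDK3, kinases that inhibit pyruvate dehydrogenase, were higher at 48 h. PDK1 had 38.8 CPM at 48 h and 8.73 CPM at 24 h with FAT4 siRNA, and 35.7 CPM at 48 h and 9.85 CPM at 24 h with control siRNA (log2 fold change 1.99, adjusted p = 1.76e-40). PDK3 had a log2 fold change of 1.09. Citrate synthase (CS) was lower at 48 h (-0.42), as were IDH3A, a subunit of isocitrate dehydrogenase (-0.36), cytochrome c (CYCS, -0.37), PPRC1, a coactivator of respiratory genes (-0.51), TFB2M, a factor of mitochondrial transcription (-0.45), PDSS1, which starts the ubiquinone tail (-0.53), the ATP synthase assembly factor TMEM70 (-0.38) and C17orf89 (now NDUFAF8), a complex I assembly factor (-0.52). PPARA, a regulator of fatty acid oxidation, was higher (1.27), as were C6orf57 (now SDHAF4), an assembly factor of complex II (1.33), COA5, an assembly factor of complex IV (0.44), GABPB2 (0.53), COQ5 (0.39) and the uncoupling protein gene UCP2 (0.34). None of the 13 subunits encoded in mitochondrial DNA was found by symbol among the genes counted, so they were not analysed here.

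The word TTGGACT was picked in an earlier search of these same ratios, and its place in the members is given as a description. It stood in the 3′ UTR of 7 of 80 tested members (8.75%, against 12.8% of 12571 genes), namely SDHC, ATP5G3, NDUFA10, NDUFA9, ATP5S, COX5A and UQCRFS1, and none of these was called between the siRNAs. Anywhere in the transcript it stood in 13 members (16.3%, against 23.4%), of which UQCR10 and NDUFA8 were lower with FAT4 siRNA. The transcripts of tested members were shorter, with a median of 716 bases against 2268 for all genes tested. Shares matched by length were not worked out, so the lower shares do not show that members lack the word.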

How the data were processed

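The mRNA of A673 cells was sequenced as 4 libraries, with FAT4 or control siRNA at 24 h or 48 h. The authors deposited whole-number read counts per gene. Per the submitters' processing notes, HTSeq, TopHat2, SAMtools, CASAVA 1.8.2 and the build hg19 were used. Annotation, counting mode and strand setting are not stated there, so overlapping genes and genes with near-identical copies (such as UQCRH and UQCRHL, ATP5E, ATP5L2) are uncertain. The 5 counter entries were kept out of library sizes. Reads outside genes were 19.5% to 20.5% and ambiguous reads 0.772% to 0.804% of the total of both with the gene counts. Alignments that were not unique came to 43.1 to 44.6 per 100 of that total. They were in no gene count, so the level per kb of any member with near-identical copies is uncertain.

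From the counts, edgeR 4.0.16 (R 4.3.3) fitted siRNA and time as additive terms after TMM scaling (factors 0.973 to 1.03). A filter at a count of 10 and total of 15 kept 13712 genes. The fit leaves 1 residual degree of freedom. Single ratios of CPM have exact 95% Clopper-Pearson intervals, which cover counting error only, and log2 ratios use a pseudocount of 1 CPM. The fit was also run on simulated counts, drawn with 1 spread for all genes that came from this same fit. Such a run cannot show how much cultures differ, so it lends no support to the calls. Length and GC content came from GENCODE release 29, and promoter windows from RefSeq (GRCh38.p14).

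Named members were those called between the siRNAs, up to 5 per direction called between the times, the 3 per direction whose siRNA ratio differed most between the times, the highest and lowest per kb of each complex, fixed subunits, and up to 2 per direction of each pathway list. ATP5L, NDUFS6, NDUFS3, ATP5G3, ATP5E, NDUFAB1 and the genes added by the GC fit were named after their values were seen, where the rule did not hold them. The members and lists were chosen with earlier results of these data known. Alternatives were other scalings, filters, pseudocounts, DESeq2 1.42.0, GC and length offsets, models without 1 term, and structural subunits alone, of which the list without COX4NB was added after seeing the data.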

Additional observations from a re-analysis of the deposited data

Results flagged for a closer look

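In 3 members the siRNA difference had opposite directions at the 2 times, with a counting interval on its own side of 1 at each. How many of all genes did so was not counted. The difference between the times was not tested in any of them, since each group is 1 library. ATP5C1, the gamma subunit of ATP synthase, had a ratio of FAT4 siRNA to control siRNA of 0.929 at 48 h (95% counting interval 0.888 to 0.973) and 1.07 at 24 h (1.03 to 1.13), a difference in log2 ratio (48 h minus 24 h) of -0.21. ATP5L, the g subunit, had 0.926 at 48 h (0.882 to 0.972) and 1.08 at 24 h (1.04 to 1.13), a difference of -0.22. UQCRC1, a core subunit of complex III, moved the other way, with 1.08 at 48 h (1.02 to 1.14) and 0.898 at 24 h (0.849 to 0.950), a difference of 0.26. All 6 ratios are less than 25% above or 20% below 1.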

How the results depend on the processing

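With DESeq2 size factors, no filter or only structural subunits, the counts of called members stayed within 1.5 times of those reported. The share of all genes called was worked out for the main fit only, so counts under other settings have no background. Between the siRNAs, DESeq2 called 1 higher and 4 lower, and the fit with no term for time 0 and 0. Between the times, scaling by total gene counts gave 2 higher and 5 lower, a filter at a mean of 5 CPM 0 higher, DESeq2 0 higher and 2 lower, and the fit with no term for siRNA 0 and 0 (2 members at an unadjusted p under 0.05). Ratios past the limits of 25% higher or 20% lower with total counts numbered 8 lower at 24 h between the siRNAs, and 4 lower between the times with FAT4 siRNA, and a mean of at least 1 CPM gave 2 higher for control siRNA. Of 145 alternative values for the called members, 102 kept their call, 43 lost it with the same direction, and 0 reversed. The causes were not tested. No paired analysis was possible because the labels carry no replicate numbers and each group is 1 library, and no replicate could be left out. The median standard error was 0.0984 on the log2 scale, and the smallest siRNA difference called was 0.37 (NDUFA5). NDUFA3 at -0.31 was not called, so shifts of that size can be missed. In a scarce gene larger shifts can be missed too, as ATP5E at -0.58 (SE 0.328) was not called.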
